A study of Mus musculus with 4 samples.

Results

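The nuclear-encoded respiratory chain genes were taken as every protein-coding gene outside the mitochondrial chromosome whose symbol begins with Nduf followed by a, b, c, s or v, with Uqcr, with Atp5, or with Cox followed by a digit from 4 to 8 and a, b or c, together with Sdha to Sdhd, Cyc1 and Cycs. The rule gave 96 of the 21900 protein-coding genes of GRCm38.p6, pseudogenes left out. A line of the data, which is 1 miRNA in 1 peak, belonged to a gene when it overlapped the gene's span on its strand by at least 1 nucleotide. Reads were found on 83 of the 96 genes, 75 of them in the control library and 80 in the mimic library.

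The study asked whether a fall in miR-1 is needed for the plantaris muscle to grow under mechanical overload (MOV), a surgery that removes part of the synergist muscles. Adult male C57BL/6J mice aged 5 months were given 10 days of MOV in both groups. The left plantaris received a lentivirus with a scrambled sequence (MOV control) and the right plantaris a lentivirus carrying a miR-1a-3p mimic (MOV mimic), both with a TurboGFP reporter. The CMV promoter of the virus is also active outside muscle fibres. Chimeric Ago2 eCLIP-seq was made from 1 library per group, so every difference between the groups is a difference between these 2 libraries, with no replicate check and no test between conditions. The input libraries were not analysed here.

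Chimeric reads arise when a miRNA is ligated to the RNA fragment held with it by Ago2, the protein that loads miRNAs. The respiratory chain passes electrons from NADH and succinate through complexes I to IV to oxygen, and complex V uses the resulting proton gradient to make ATP. Most subunits are encoded in the nucleus and imported, and skeletal muscle, which depends on this pathway for sustained work, carries several tissue-specific subunit isoforms. The miR-1 and miR-133 families are abundant in muscle fibres and are known as myomiRs.

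The miRNAs that held most reads on these genes can be read by their seed, bases 2 to 8, which pairs with targets and is shown in capitals. The mature sequences below are those of RefSeq for GRCm38.p6, written 5′ to 3′. They are shown because these names carried the most reads on respiratory chain genes or had the largest difference from other genes, and miR-133a-3p and miR-1a-3p belong to the seed families of miR-133b-3p and miR-206-3p. Both miR-27 names share a seed.
miR-133b-3p: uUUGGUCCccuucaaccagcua
miR-206-3p: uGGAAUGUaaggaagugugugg
miR-22-3p: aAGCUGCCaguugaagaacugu
miR-27a-3p: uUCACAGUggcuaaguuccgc
miR-27b-3p: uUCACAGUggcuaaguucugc
miR-26a-5p: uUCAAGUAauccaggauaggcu
let-7c-5p: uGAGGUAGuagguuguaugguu

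Respiratory chain genes held 2867 chimeric reads of all miRNAs with control virus (95% interval 2763 to 2974) and 3110.0 with mimic virus (3002 to 3221). Here and below, intervals are 95% intervals and cover counting error only, and of paired values the control comes first. These reads lay in 240 peaks of the control and 257 of the mimic. They were 1.43% of the reads outside the mitochondrial chromosome with control virus (1.38% to 1.48%) and 1.39% with mimic virus (1.34% to 1.43%). After scaling to the total chimeric reads of each library, 232408 with control virus and 259207 with mimic virus, the ratio of mimic to control was 0.973 (0.924 to 1.02). The read number of a gene depends on how much of its RNA was present and on how much of it was bound by Ago2, and these cannot be told apart here.

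As a check of the tissue, the 8 skeletal fibre genes looked at (Acta1, Ckm, Ttn, Neb, Myh1, Myh2, Myh4 and Tnnt3) together held 16.9% of all chimeric reads with control virus and 19.8% with mimic virus. The 3 fibroblast genes Col1a1, Col3a1 and Dcn held 1.39% and 1.22%. Endothelial, macrophage and red blood cell genes held at most 0.0147% per list, and Pecam1 and Adgre1 had no read with control virus. The part of these other cells in the results below was not tested. In a whole muscle, fewer cells of a type and less RNA per cell cannot be told apart.

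The reads were concentrated on complex V, the ATP synthase. Its 17 genes held 1186 reads with control virus and 1323 with mimic virus, a scaled ratio of 0.9998 (0.924 to 1.08). The 39 complex I genes held 724 and 771 reads (ratio 0.955, 0.862 to 1.06), and the 18 complex IV genes held 441 and 480 (ratio 0.976, 0.856 to 1.11). Complex III, with 9 genes, held 277 and 289 reads (ratio 0.937, 0.791 to 1.11). No complex stood apart in its ratio. The 4 genes of complex II held 222 and 234 (ratio 0.945, 0.783 to 1.14). Every one of these 5 intervals held 1. The 8 complex I assembly factors (Ndufaf) held 15.9 and 12.01 reads in all, and Cycs, the gene for cytochrome c, had none. These read numbers rank the evidence for each gene, and since they were not divided by length they do not rank expression.

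Atp5b, which encodes the catalytic beta subunit of the ATP synthase, held the most reads of any respiratory chain gene, 456 with control virus (415 to 500) and 544 with mimic virus (499 to 592). Its scaled ratio was 1.07 (0.943 to 1.21). Atp5a1, the alpha subunit beside it, held 212 and 278 reads (ratio 1.18, 0.980 to 1.41). Atp5g3 encodes the c subunit of the membrane ring, and its reads went from 192 with control virus to 147 with mimic virus, a ratio of 0.686 (0.550 to 0.855). Among the respiratory chain genes with at least 100 reads it was the only one whose interval left out 1. The mature c subunit is also encoded by Atp5g1, which held 0 and 3.62 reads, and by Atp5g2, which held none. How any reads that fitted more than 1 of these genes were placed was not stated in the sources used here.

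**Figure D1:**
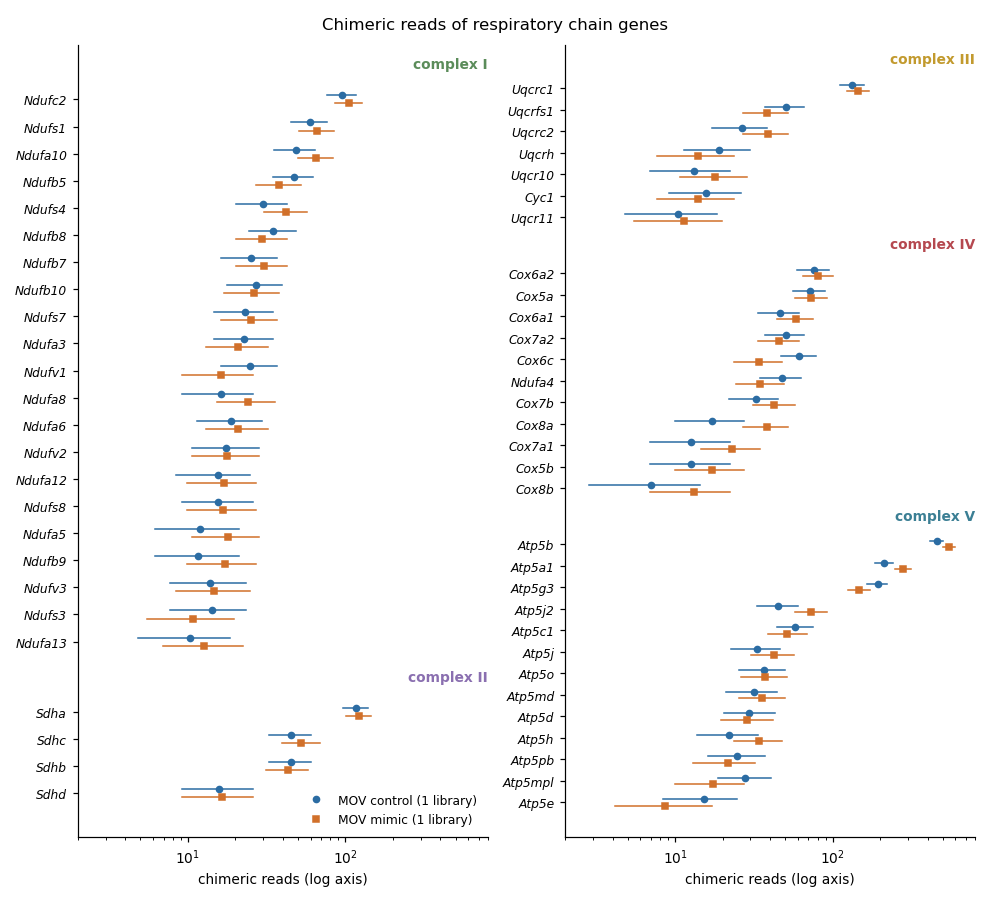
Chimeric reads (log axis) of the 57 respiratory chain genes with at least 20 reads over both libraries, grouped by complex, in the MOV control (circles) and MOV mimic (squares) library. Lines are 95% Poisson intervals and cover counting error only. Of these, 1 gene of complex I is not shown. Atp5b stands highest at 456 and 544 reads, and for most genes the lines of the 2 libraries overlap.

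In complex III, Uqcrc1, a core subunit facing the matrix, led at 132 reads with control virus and 145 with mimic virus (ratio 0.984, 0.773 to 1.26). In complex II it was Sdha, the flavoprotein that oxidises succinate, with 116 and 122 reads (ratio 0.942, 0.725 to 1.23). In complex I it was Ndufc2, an accessory subunit of the membrane arm, with 95.5 and 105 (ratio 0.983, 0.744 to 1.32). The leading genes of these complexes thus differed little between the libraries. Complex IV was led by Cox6a2, the muscle isoform of subunit VIa, with 75.4 and 80.5 reads (ratio 0.958, 0.699 to 1.34).

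Cox5a, a structural subunit of complex IV, held 71.1 and 72.9 reads. Ndufs1, a core subunit of complex I, held 59.2 and 66.0 reads. Ndufa10, an accessory subunit, held 48.3 and 65.4 reads (ratio 1.21, 0.823 to 1.80). The 12 genes with the most reads, Atp5j2 among them, held 55.9% of the reads of all 96, and the first 5 held 39.2%.

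No reads in either library were found on 13 genes, which were Atp5g2, Cox6b2, Cox7b2, Cox7c, Cox8c, Cycs, Ndufaf3, Ndufaf5, Ndufaf7, Ndufaf8, Ndufb4, Ndufb4b and Ndufb4c. A library with no read of a gene allows up to 3 reads. In the control alone 3 genes had reads (Ndufb3, Atp5l and Atp5k), and in the mimic alone 8 had reads, led by Cox7a2l with 7.54. Of the genes with reads, 26 had fewer than 20 over both libraries. Cox6b1 stood just under that minimum with 19.6 reads and Cox8b just above it with 20.1.

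Of all 2694 nuclear protein-coding genes with at least 20 reads over both libraries, 13.4% were at least 1.5-fold higher with mimic virus and 17.9% at least 1.5-fold lower, on scaled reads. Among the 57 respiratory chain genes past that minimum, 3 were higher (5.26%) and 6 were lower (10.5%), and 48 stayed within 1.5-fold. The median log2 ratio was -0.04 (-0.13 to 0.06) for these genes and -0.07 (-0.10 to -0.05) for the other 2637. Their SD of log2 ratios was 0.42, against 0.67 for the others, which on the whole had fewer reads. With at least 100 reads, none of 14 respiratory chain genes was past the fold, while 24 of 492 others were higher and 28 lower, and the SD was 0.27 against 0.37. At 20 to 50 reads, 2 of 24 respiratory chain genes were higher and 4 lower, against 282 and 359 of 1523 others.

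All 3 genes that were higher encode subunits of complex IV. Cox8a, the widely expressed isoform of subunit VIII, rose from 17.2 reads with control virus to 38.3 with mimic virus, a scaled ratio of 1.998 (1.104 to 3.79). Its muscle isoform Cox8b held 6.98 and 13.1 reads (ratio 1.68, 0.617 to 4.93), and Cox7a1, the muscle isoform of subunit VIIa, held 12.6 and 23.0 (ratio 1.64, 0.771 to 3.41). The intervals of Cox8b and Cox7a1 held 1. Atp5j2, subunit f of the ATP synthase, lay just inside the fold at 44.6 and 73.1 reads (ratio 1.47, 0.990 to 2.16). Unscaled its ratio was 1.64 (1.104 to 2.41). With only lines of at least 3 reads, the ratio was 2.68 (1.55 to 4.71) for Atp5j2, 2.81 (1.16 to 9.09) for Cox7a1 and 1.16 (0.241 to 5.65) for Cox8b, so these calls depend on how lines of few reads are treated.

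The gene with the lowest ratio was also of complex IV. Cox6c, a small subunit, held 61.1 reads with control virus and 33.9 with mimic virus, a ratio of 0.498 (0.318 to 0.772). Atp5e, the epsilon subunit, held 15.3 and 8.56 reads (ratio 0.502, 0.208 to 1.31), and Atp5mpl, a small membrane subunit of the ATP synthase, 27.8 and 17.3 (ratio 0.558, 0.280 to 1.03). Ndufv1, the flavoprotein that binds NADH, was at 0.587, Ndufa4, now counted with complex IV, at 0.655 and Uqcrh, the hinge subunit of complex III, at 0.661. Of all 57 genes, only Cox8a, Cox6c and Atp5g3 had an interval that left out 1. Among 57 such intervals, a few are expected to leave out 1 from counting error alone. The same count was not made for the other genes, so whether 3 is more than usual was not tested. The ratios ran from 0.587 to 1.34 over 22 genes of complex I, from 0.857 to 1.04 over the 4 of complex II and from 0.661 to 1.31 over 7 of complex III. In complex IV they ran from 0.498 to 1.998 over 11 genes and in complex V from 0.502 to 1.47 over 13. Complex IV thus held both the highest and the lowest ratio. Across the 57 genes the log2 reads of both libraries had a Pearson r of 0.94, a description of genes that share both libraries and their depths.

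**Figure D2:**
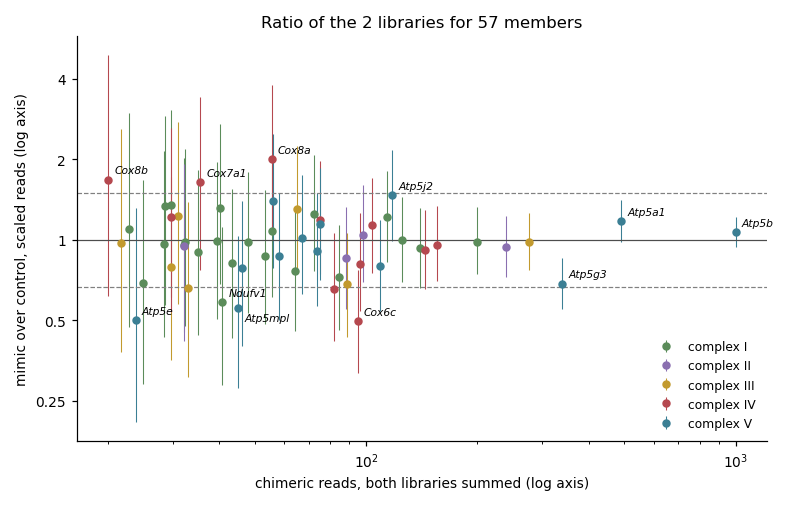
Ratio of scaled chimeric reads, mimic over control (log axis), against the reads of both libraries summed (log axis), for 57 respiratory chain genes coloured by complex. Lines are 95% conditional binomial intervals of counting error, dashed lines mark 1.5-fold either way, and the points close in on 1 as reads rise, with Atp5b at 1.07.

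The miRNA with the most reads on these genes was miR-133a-3p. It held 914 reads with control virus and 985 with mimic virus, on 63 and 64 of the genes. A cDNA amplification with a miR-1 primer is described in the methods, and its part in the shares of miRNAs was not tested. The reads of miR-133a-3p were 31.9% of all on these genes with control virus (30.2% to 33.6%) and 31.7% with mimic virus (30.04% to 33.3%). On all other nuclear protein-coding genes its share was 21.7% (21.5% to 21.9%) and 23.7% (23.5% to 23.9%), so the share on respiratory chain genes was higher by 10.2 and 7.92 percentage points. Without Atp5b, which held 25.6% and 24.6% of these miR-133a-3p reads, the excess was 6.56 and 5.20 points. As a share of lines in place of reads, the excess was 2.89 points with control virus (1.22 to 4.70) and 1.40 with mimic virus (-0.11 to 3.04).

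Other gene lists were counted in the same way. In 13 glycolysis genes miR-133a-3p held 39.2% and 39.6% of the reads, and in the 17 genes of the tricarboxylic acid cycle 25.7% and 25.6%. In 81 cytosolic ribosomal protein genes it held 16.9% and 20.5%. The 13 respiratory chain genes encoded in the mitochondrion itself had a different mix. There miR-133a-3p held 1.28% and 1.58%, and miR-1a-3p held 42.3% and 47.1%.

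Counted gene by gene, miR-133a-3p was the leading miRNA on 28 of the 57 genes with control virus (49.1%) and 31 with mimic virus (54.4%), against 25.6% of the other 2637 genes in each library. The leading miRNA was the same in both libraries for 38 of the 57 (66.7%) and for 53.2% of the others. By complex, it led on 11 and then 14 of 22 genes of complex I, 2 and 3 of 4 of complex II, 3 and 3 of 7 of complex III, 4 and 4 of 11 of complex IV, and 8 and 7 of 13 of complex V. Its share varied widely among the genes. It reached 92.2% on Cox6a1 with control virus and 82.6% on Ndufb8 with mimic virus, and it was 0 on Cox7a1 and Cox8b in both libraries.

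Next came miR-1a-3p, the miRNA that the mimic copies, with 280 reads on respiratory chain genes with control virus and 364 with mimic virus. Its share was 9.77% (8.70% to 10.9%) and 11.7% (10.6% to 12.9%), and on all other nuclear protein-coding genes it was 9.73% and 11.4%. The scaled ratio of its reads was 1.16 (0.995 to 1.37) on the respiratory chain and 1.18 (1.152 to 1.1996) on the other genes. The interval on the respiratory chain thus held the ratio of the other genes. Over both libraries Atp5a1 held 23.5% of these reads, Atp5b 23.0% and Uqcrc1 10.7%. On Atp5a1 miR-1a-3p went from 61.4 to 89.8 reads (ratio 1.31, 0.945 to 1.86), and on Atp5b from 57.2 to 91.2 (ratio 1.43, 1.02 to 2.03).

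The miR-1a-3p reads of single members, picked here from 56, went both ways. On Cox6c it was 33.3 reads with control virus and 19.2 with mimic virus (ratio 0.517, 0.277 to 0.935). On Ndufs1 it was 1.196 and 12.01 reads (ratio 9.01, 1.59 to 460), and on Cox8a 1.25 and 13.9 (ratio 9.96, 1.91 to 531). Cox6c thus had fewer miR-1a-3p reads with mimic virus, and the reads of Ndufs1 and Cox8a went the other way. The reads of all miRNAs on Cox6c had a similar ratio, 0.498, and the share of miR-1a-3p there was 54.6% and 56.6%. The rises on Ndufs1 and Cox8a rest on about 1 control read each, and these genes were picked after their values were seen.

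Among the 13 miRNAs with at least 100 observed or expected reads on these genes, 6 had a higher share there than on other genes in both libraries and 5 a lower one. The intervals of the 2 sets stood apart in both libraries for miR-133a-3p and miR-22-3p, which were higher, and for let-7a-5p, let-7c-5p and miR-23a-3p, which were lower. The share of miR-22-3p was 3.81% and 4.32%, against 2.40% and 2.55% on other genes. With mimic virus this rested on Atp5j2, since without it the share was 3.28% (2.64% to 3.98%) with control virus and 2.74% (2.18% to 3.38%) with mimic virus. The share of let-7c-5p was 0.624% and 0.682%, against 2.11% and 2.01%. For let-7a-5p it was 0.676% and 0.990%, against 1.76% and 1.64%, and for miR-23a-3p 1.25% and 1.06%, against 1.93% and 1.81%.

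Of the other named miRNAs, miR-133b-3p held 7.76% and 6.35% of the reads, against 6.21% and 5.92% on other genes. The share of miR-206-3p, from the seed family of miR-1, was 4.76% and 4.77%, against 6.51% and 5.42%. Cox6a2 alone held 36.4% of its reads, and without Cox6a2 the share was 3.10% and 3.13%. The reads of miR-378a-3p went from 52.0 to 90.0 (ratio 1.55, 1.09 to 2.23) and from 27 to 44 genes, while on other genes the ratio was 1.17. The reads of miR-26a-5p went from 96.9 to 78.2 (ratio 0.724, 0.528 to 0.981), with a ratio of 1.05 elsewhere. Both intervals on these genes left out 1, among 13 miRNAs looked at, and for miR-378a-3p the interval held the ratio of the other genes. Of the miR-26a-5p reads Atp5g3 held 21.5 and 9.52, Atp5h 16.2 and 13.9, and Atp5a1 10.3 and 10.5. The miR-26a-5p ratio without Atp5g3 was not worked out.

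The share of miR-27a-3p was 4.18% and 3.72%, and that of miR-27b-3p 2.08% and 2.03%. For miR-24-3p it was 2.34% and 1.87%. The first 4 miRNAs together held 54.2% and 54.5% of the reads, and the first 10 held 71.8% in each library. Over both libraries 225 miRNAs were found on respiratory chain genes.

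**Figure D3:**
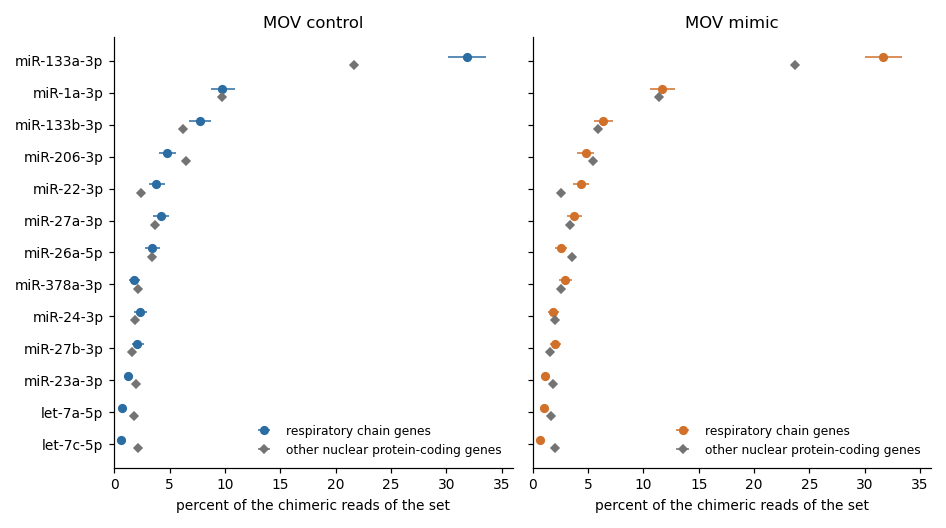
Share of chimeric reads held by each of the 13 miRNAs with at least 100 observed or expected reads, on respiratory chain genes (circles) and on the other nuclear protein-coding genes (diamonds), in each library. Lines are 95% Clopper-Pearson intervals of counting error. The widest gap is that of miR-133a-3p, at 31.9% against 21.7% with control virus and 31.7% against 23.7% with mimic virus.

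The mix of miRNAs differed between complexes, and most shares were near each other in the libraries. The share of miR-133a-3p was highest on complex V among the complexes with control virus, at 38.1% (35.3% to 40.9%), and lowest on complex III, at 19.9% (15.3% to 25.05%). With mimic virus it was 35.3% and 22.8%, with complex II at 36.3%. On complex V, Atp5b alone held 234 of the 452 miR-133a-3p reads with control virus and 242 of the 467 with mimic virus. The share of miR-1a-3p was 16.9% and 17.0% on complex III and 2.13% and 2.18% on complex II. The share of miR-206-3p was 15.1% and 14.2% on complex IV, where Cox6a2 held most of it, and at most 6.78% on the other complexes.

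Complexes I and II had more miR-27a-3p than the rest, with intervals apart from those of complexes III, IV and V in both libraries. Its share was 8.14% and 6.89% on complex I, 10.2% and 7.89% on complex II, and between 1.004% and 2.32% on complexes III, IV and V. Over both libraries Ndufc2 held 20.4% of the miR-27a-3p reads of all respiratory chain genes and Sdha 14.5%. On Ndufc2 it had 25.2 reads with control virus and 22.9 with mimic virus, and all the control reads lay at chr7:97406920-97407006 on the plus strand. On Sdha it had 18.7 and 15.5, of the 22.6 and 18.5 reads on complex II. The complex II share thus rested mostly on this 1 gene. The share of miR-22-3p was 5.57% and 6.98% on complex V and at most 3.63% elsewhere.

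**Figure D4:**
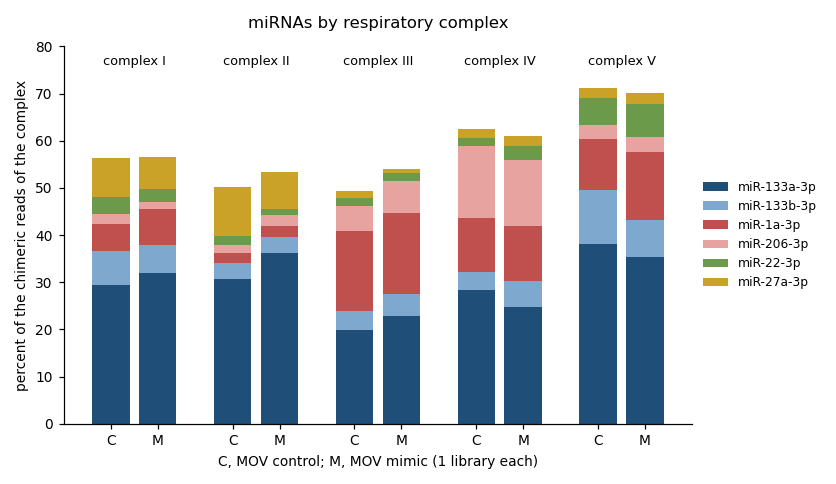
Percent of the chimeric reads of each respiratory complex held by 6 miRNAs, stacked, in the MOV control (C) and MOV mimic (M) library, without error bars. Complex V has the tallest miR-133a-3p block with control virus (38.1%), complex III the tallest miR-1a-3p block (16.9% and 17.0%), and complex IV the tallest miR-206-3p block (15.1% and 14.2%).

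The isoforms of subunit VIa differed in the miRNA they were found with. Cox6a2, the isoform of muscle, was mostly found with miR-206-3p, which held 66.3% of its reads with control virus and 66.6% with mimic virus. On the same gene miR-133a-3p held 12.6 and 4.43 reads (ratio 0.316, 0.0655 to 0.893). Cox6a1, the widely expressed isoform, held 46.0 and 58.0 reads, of which 92.2% and 74.9% were of miR-133a-3p. Cox7a1 was led by miR-26a-5p with control virus, with 6.39 of its 12.6 reads, and by miR-21a-5p with mimic virus, with 17.0 of 23.0. On Cox7a1 miR-21a-5p had 2.90 reads with control virus (ratio 5.27, 1.47 to 27.1). Cox7a2, its counterpart in other tissues, held 50.5 and 45.8 reads, but 84.0% of them lay in lines that also overlapped Tmem30a on the same strand, so its values are uncertain. No other respiratory chain gene shared reads with another gene on its strand.

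Cox8a also changed its mix. With control virus 8.56 of its 17.2 reads were of miR-16-5p, all at chr19:7217457-7217510 on the minus strand, and the mimic had none, which allows up to 3. With mimic virus miR-1a-3p held 13.9 and miR-133a-3p 8.90 of its 38.3 reads. Atp5j2 was led by miR-22-3p, which rose from 16.8 to 50.9 reads (ratio 2.71, 1.53 to 4.97), while its other reads were fewer with mimic virus. Atp5c1, the gamma subunit of the ATP synthase, was also led by miR-22-3p, with 41.3% and 38.7% of its reads. Atp5h, a stalk subunit of the ATP synthase, was led by miR-26a-5p in both libraries, with 74.1% and 40.9% of its reads. Sdhc, a membrane anchor of complex II, was led by miR-214-3p, with 8.93 and 12.5 reads.

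The site with the most reads was that of miR-133a-3p on Atp5b at chr10:128084304-128084433 on the plus strand, which held 106 reads with control virus and 101 with mimic virus (ratio 0.858, 0.644 to 1.13). Its centre lay 1062 nt from the annotated start of the gene, whose span is 7082 nt (chr10:128083307-128090388). In the same peak miR-133b-3p held 44.9 and 26.6 reads (ratio 0.531, 0.321 to 0.886). Another miR-133a-3p site of Atp5b, at chr10:128086063-128086161, held 32.3 and 48.4 reads (ratio 1.34, 0.842 to 2.17). The exon annotation of this build was not used here, and sites are placed by their distance within the gene span.

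The largest miR-133a-3p and miR-1a-3p sites of Atp5b lay in different peaks. The control had 7 peaks on the gene and the mimic 9. In the peak whose centre lay 1062 nt from the start with control virus and 1058 nt with mimic virus, miR-133a-3p held 60.1% and 66.7% of the reads and miR-1a-3p 1.70% and 1.22%. In the peak at chr10:128089011-128089121, 5759 nt from the start, miR-1a-3p held 45.6% of the reads with control virus and 49.8% with mimic virus, and miR-133a-3p 15.7% and 13.3%. There miR-1a-3p had 50.7 reads with control virus and 73.8 with mimic virus (ratio 1.31, 0.898 to 1.90). Each of these peaks held 20 to 23 miRNAs in either library.

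**Figure D5:**
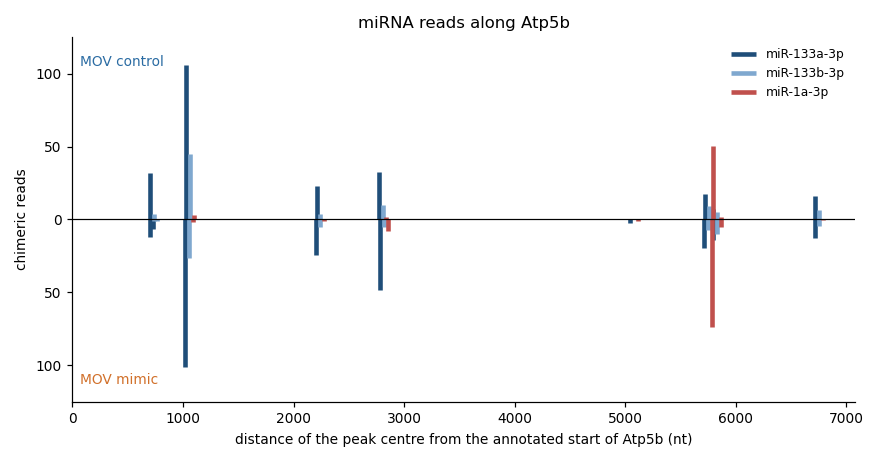
Chimeric reads of miR-133a-3p, miR-133b-3p and miR-1a-3p in each peak of Atp5b, by the distance of the peak centre from the annotated gene start in nt, with the MOV control library drawn upward and the MOV mimic library downward. Bars of 1 peak are set slightly apart so that they can be seen. The tallest miR-133a-3p bars (106 and 101 reads) and the tallest miR-1a-3p bars (50.7 and 73.8 reads) stand in different peaks.

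After Atp5b, the largest sites were on Atp5a1 and Cox6a1. The miR-1a-3p site of Atp5a1 held 52.0 reads with control virus and 78.4 with mimic virus (ratio 1.35, 0.935 to 1.95). The miR-133a-3p site of Cox6a1, at chr5:115345735-115345828 on the minus strand, held 41.7 and 42.6 reads (ratio 0.916, 0.586 to 1.44), and its centre lay 130 nt before the annotated end of the gene. On Atp5g3 the miR-133a-3p site at chr2:73909870-73909942 held 35.8 and 34.3 reads. These 3 sites differed by less than their counting intervals.

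Of the 10 sites with the most reads, Atp5j2 had the largest ratio. Its miR-22-3p site at chr5:145184543-145184642 on the minus strand held 15.8 reads with control virus and 49.8 with mimic virus (ratio 2.82, 1.57 to 5.27). The 2 other sites of the first 10 were those of miR-206-3p on Cox6a2, at chr7:128205741-128205795 with 29.9 and 36.9 reads, and of miR-1a-3p on Uqcrc1, at chr9:108944782-108944887 with 28.4 and 33.2 reads. Only the Atp5j2 site and the miR-133b-3p site of Atp5b had an interval that left out 1 among these 10.

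How often a site came back in the other library depended on its reads. Of the 1618 control lines on respiratory chain genes, 40.6% (38.2% to 43.0%) were overlapped by a mimic line of the same miRNA, against 34.0% (33.7% to 34.3%) on other nuclear protein-coding genes. Below 1 read the share was 29.5%, from 1 to 3 reads 41.8%, and from 3 to 10 reads 88.4%, against 22.3%, 37.8% and 79.4% on other genes. All 50 control lines with 10 or more reads were found in the mimic library (92.9% to 100%), and all 50 such mimic lines in the control library. On other genes 97.1% of such control lines were found. Lines of few reads were common, and the median line held 0.861 reads with control virus and 0.821 with mimic virus. The 50 lines with 10 or more reads held 38.6% of the reads with control virus and 39.4% with mimic virus.

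At the 606 sites that paired between the libraries, the median log2 ratio of scaled reads was -0.16 (-0.17 to 0.00), against -0.11 (-0.12 to -0.10) at 27377 sites of other genes. Unscaled, the median was 0.00. At the 117 pairs with at least 3 reads in both libraries it was -0.17 (-0.31 to 0.02), against -0.04 (-0.06 to -0.02). The 54 paired miR-1a-3p sites had a median of 0.03 (-0.41 to 0.56), against 0.12 (0.06 to 0.17) on other genes, and for 121 miR-133a-3p sites it was 0.02 (-0.22 to 0.39). At this depth no shift of the respiratory chain sites apart from other genes was detectable for miR-1a-3p.

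Peaks on respiratory chain genes held more miRNAs than other peaks. The median was 6 miRNAs per peak in both libraries, with a highest of 24, against 3 on other genes. Peaks with a single miRNA were 2.08% and 1.95% of the total, against 10.4% and 10.3%. Their peaks also held more reads, with a median of 6.98 with control virus and 5.80 with mimic virus against 3.30 and 3.23, and the part of depth in the number of miRNAs was not tested.

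The transcripts of these genes are short, and the share that holds a seed match was lower than among other genes for each of the 6 seed families searched. In the GENCODE transcripts of the mm9 assembly, the longest per gene, the median length was 908 nt for 93 respiratory chain genes and 2527 nt for the others. The match to bases 2 to 8 of miR-133, GGACCAA, searched on the transcript strand, was in 4.30% of them and in 19.1% of 20259 other genes. Per 1000 nt there were 0.0441 and 0.0769 such matches. The match of miR-1 and miR-206, ACATTCC, was in 4.30% and 18.2%, that of miR-22, GGCAGCT, in 9.68% and 33.4%, and that of miR-27, ACTGTGA, in 10.8% and 29.8%. For miR-26, TACTTGA, it was 3.23% and 13.4%, and for miR-24, CTGAGCC, 18.3% and 33.9%. Per 1000 nt the matches were 0.0705 on other genes against 0.0441 for miR-1 and miR-206, 0.157 against 0.0793 for miR-22, 0.133 against 0.0970 for miR-27 and 0.0516 against 0.0264 for miR-26. For miR-24 they were nearly equal, 0.159 on respiratory chain genes and 0.161 on the others, and 12 of the 57 genes with at least 20 reads held its match. A match is a description of letters and not a site.

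Among the 57 genes with at least 20 reads, only Cox6a1 and Ndufv3 held the miR-133 match. These 2 genes held 4.107% of the 2291 reads of miR-133a-3p and miR-133b-3p on the 57 genes. On 2619 other genes 57.8% of such reads lay on the 25.8% of genes with the match. Here and below, these shares were not adjusted for the longer transcripts of other genes, and genes with many reads weigh most in them. With the shorter match to bases 2 to 7, GACCAA, 9 of the 57 genes held it, with 26.1% of the reads, against 80.8% of the reads on others. Atp5b, Atp5a1 and Sdha, among the 5 genes with the most miR-133 reads, held neither. Atp5g3 held the shorter match only.

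For miR-1 and miR-206 the 7-base match was on Atp5a1 and Atp5d, which held 21.0% of the 906 reads, against 44.5% of the reads on the matched 28.1% of other genes. The shorter match CATTCC was on 12 of the 57 genes, with 72.7% of the reads, against 78.6% on others. Atp5b, Cox6a2 and Uqcrc1 were among them. The shares of reads on genes with the 7-base match were 28.0% for miR-22 and 22.7% for miR-27, against 66.8% and 70.1% on other genes. Each of these matches was on 5 of the 57 genes, against 42.1% and 40.7% of other genes. Of the reads on matched genes among the 57, miR-22 held 20.9% and 16.4%, against 2.83% and 3.46% on those without it. For miR-27 these were 19.1% and 16.7%, against 5.13% and 4.75%. Most of these reads were on 1 gene per family. Atp5c1 held 23.9 of 34.9 and 19.96 of 31.2 miR-22 reads on matched genes, and Sdha 26.1 of 40.2 and 22.0 of 36.8 miR-27 reads. The median matched gene held 3.18% and 7.66% miR-22, against 0 and 0 without a match. For miR-27 the medians were 12.9% and 14.3%, against 2.32% and 0.0937%. The absence of a match says only that these letters were not in the transcript searched.

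A few of these matches lie on genes with many reads of the same miRNA, and they are shown with the 7-base match in capitals. A shared gene does not place the reads on the match. They are stretches of the mm9 GENCODE transcripts, all in the coding sequence. The positions of the peaks were not carried over to these transcripts, so whether a peak covers its match was not tested. On Cox6a1 the miR-133 match lay at positions 279 to 285 of a transcript of 571 nt, and 43.1 and 47.8 reads were of miR-133. The largest miR-133a-3p site of Cox6a1 was centred 130 nt before the annotated gene end. That is nearer the gene end than the match was to the end of this transcript, and the 2 ends were not compared. On Atp5c1 the miR-22 match was at 829 to 835, with 23.9 and 19.96 reads of miR-22. On Sdha a miR-27 match was at 448 to 454, with 26.1 and 22.0 reads of miR-27.
Cox6a1, miR-133: ctcacctgcgcatcaGGACCAAgccc
Atp5c1, miR-22: gtctatgaagatggtGGCAGCTgcaa
Sdha, miR-27: tggcatttctatgacACTGTGAaagg

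Other genes of the pathway that the symbol rule leaves out, 55 in number, were counted in the same way. They comprised Cox4i1 and its paralog, assembly factors, carriers and regulators, and 37 of them had reads. Of the 12 with at least 20 reads, 1 was at least 1.5-fold higher and none was lower. The higher one was Ppargc1b, a coactivator of mitochondrial genes, with 13.8 and 31.1 reads (ratio 2.02, 1.03 to 4.04). Slc25a4, the ADP/ATP carrier of muscle, held 444 and 407 reads (ratio 0.823, 0.717 to 0.942). Coa5, a complex IV assembly factor, held 132 and 168 and was led by miR-1a-3p in both libraries. Ckmt2, the mitochondrial creatine kinase of muscle, held 78.0 and 116 (ratio 1.34, 0.992 to 1.80), and Cox4i1, a large complex IV subunit, 58.3 and 70.1. On these 55 genes miR-133a-3p held 38.7% and 37.4% of the reads.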

How the data were processed

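Chimeric Ago2 eCLIP-seq was analysed in the 2 libraries of MOV plantaris, control and mimic, 1 per group. The deposited values were estimated counts, the chimeric reads of 1 miRNA in 1 peak, which the authors did not scale to depth and which were mostly fractions. The submitters' processing notes name UMI-tools 1.1.1, cutadapt 3.2, STAR 2.7.7a, Bowtie 1.2.3, HOMER 4.11 and mm10. The methods name mm9 and CLIPper, and also an amplification with a miR-1 primer, so shares of miRNAs describe these libraries. Of the lines, 96.6% in the control and 96.5% in the mimic lay on a GRCm38.p6 RefSeq gene of the same strand. How fractions arose and how alike miRNA names were told apart is not given in the sources used here. The names miR-199a and miR-199b changed places between the libraries and were not compared.

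Gene spans were those of RefSeq. The strand of 79 respiratory chain genes came from the RefSeq promoter table and that of 17 from GENCODE by name, and 351 protein-coding genes elsewhere without a strand were not counted. Reads were scaled by the total of each library, 232408 and 259207, which differ by a factor of 1.12. Genes with at least 20 reads over both libraries were compared at 1.5-fold. Intervals at 95% were exact Poisson for reads, Clopper-Pearson for shares, conditional binomial for ratios, each after rounding of reads, and order statistics for medians. They cover counting error only and leave out the variation between animals. There was no test between conditions. Sites were paired when lines of the same miRNA and strand were each other's largest overlap, with at least 1 shared nucleotide.

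Named were the 12 genes with the most reads, the first of each complex, the 3 largest rises and 3 largest falls, the 10 largest sites, the 10 leading miRNAs with miR-1a-3p, miR-206-3p, miR-133a-3p and miR-378a-3p, and the 5 miRNAs with the largest excess and the 5 with the largest deficit. A gene of complex I that the rule names is not reported here by name, though it is in all counts. Isoforms and other genes named beside them were chosen after their values were seen. The members, lists and rules were chosen with earlier results of these data known. Alternatives were other minima of reads, folds, scalings and overlaps, and fewer lines or members. Python 3.11.15, numpy 2.4.6, pandas 2.3.3, scipy 1.17.1 and matplotlib 3.10.9 were used, and the functions were tested on simulated data.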

Additional observations from a re-analysis of the deposited data

How the results depend on the processing

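No paired analysis was possible because only 1 library stood for each group. With lines of at least 1 read, respiratory chain genes held 2528 reads with control and 2699 with mimic virus. Of these reads miR-133a-3p held 35.2% and 35.5%, and miR-1a-3p held 12.96% with mimic virus. In that setting 1 of the 53 genes tested was 1.5-fold higher and 7 were lower, and 43.3% of control sites were found in the mimic. With lines of at least 3 reads the genes held 1789 and 1954 reads, 1.37% and 1.31% of nuclear reads. Of these miR-133a-3p held 44.7% and 45.1% (14.7 and 12.7 points above other genes) and miR-1a-3p 12.3% and 15.2%. Of control sites 68.1% were found in the mimic. Past the fold, 4 of the 38 genes tested were higher and 9 were lower. Without Atp5b the reads were 2411 and 2566, their share of nuclear reads 1.201% and 1.14%, and miR-133a-3p held 28.2% and 28.9%, 6.56 and 5.20 points above other genes. Without scaling, the ratio of all reads was 1.08, of complex I 1.06 and of complex V 1.12. There 5 of the 57 genes tested were higher, and the median of paired sites was 0.00.

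With a minimum of 10 reads 10 of the 68 genes tested were lower. With 50 reads 1 of 33 was higher and 2 were lower. At 2-fold 0 of 57 were higher and 1 was lower, since Cox8a lay just under 2. The share of other genes past the fold under each alternative is not set beside these counts. As a share of lines, miR-133a-3p held 11.001% and 9.78%, 2.89 and 1.40 points above other genes, and miR-1a-3p 5.62% and 5.36%. With miR-206-3p added, miR-1a-3p held 14.5% and 16.5%. With miR-133b-3p added, which was chosen after seeing the data, miR-133a-3p held 39.7% and 38.0%. Site overlap was 31.3% at 50% reciprocal overlap and 87.6% with any miRNA. No alternative reversed a value whose interval left out 1, or left out 0 for differences and medians. Other ratios could cross 1, as that of all reads did without scaling. Of the summary values under an alternative, 68 stayed inside the interval of the reported value and 48 did not. For counts of genes, staying meant within 1.5 times of the reported count. Many of the 48 differ from the reported value by a small amount. Counts of genes were compared as counts and not as shares of the genes tested. Thus 9 lower of 38, with lines of at least 3 reads, counted as staying beside 6 lower of 57. Of the values of single genes and miRNAs, 195 stayed inside the interval of the reported value and 29 did not. The interval of Atp5a1 left out 1 with lines of at least 1 read (1.03 to 1.53) or 3 reads (1.05 to 1.60) and without scaling (1.09 to 1.58), and that of Atp5b without scaling (1.05 to 1.35). Depth limits single genes: at 20 to 50 reads the SD of log2 ratios was 0.46 for respiratory chain genes and 0.80 for others, against 0.27 and 0.37 at 100 or more.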
